A study of Mus musculus with 6 samples.

Results

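The CC chemokines are a family of small secreted proteins whose first cysteines stand side by side. The 10 genes described here, Ccl2, Ccl3, Ccl4, Ccl5, Ccl6, Ccl7, Ccl8, Ccl9, Ccl11 and Ccl20, were taken as a fixed list and matched by Ensembl identifier in 6 tables of single-cell RNA sequencing of the mouse bladder mucosa. Of the 10, 9 were listed in every table, among 14347 genes that all tables share once mitochondrial and ribosomal genes are left out, and Ccl20 was listed in 4 tables. All mice were wild type C57BL/6 animals of 8 weeks. The healthy mice (Healthy 1 and 2) were untreated. The acutely injured mice (Acute 1 and 2) were collected 48 hours after cyclophosphamide (CPP), an alkylating drug whose metabolites injure the bladder lining. The chronically injured mice (Chronic 1 and 2) had 4 rounds of CPP, each at a lower dose than the acute one. They were collected on day 11, which per the study was 48 hours after the last round. The mucosal layer was digested with collagenase, several animals stood behind each condition, and each library can hold cells of more than 1 animal, so that p-values describe the spread between libraries.

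CC chemokines are released by immune and stromal cells and are held on the surface of blood vessels and matrix, where they draw in leukocytes that carry the matching receptors. Ccl2 and Ccl7 attract monocytes and related cells through Ccr2 and other receptors, and Ccl3, Ccl4 and Ccl5 act on macrophages and lymphocytes. Ccl6 and Ccl9 act on Ccr1, Ccl11 attracts eosinophils through Ccr3, and Ccl20 attracts cells with Ccr6. In the bladder wall, resident macrophages and dendritic cells lie in the stroma below the urothelium.

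The libraries held 54604109 to 111985678 UMIs (unique molecular identifiers, 1 per captured mRNA molecule) in 5348 to 15062 barcodes, with a median of 5530 to 9138 UMIs per barcode, and pairs of libraries shared 36 to 208 barcode sequences. Levels are given as CPM, the UMIs of a gene per 1000000 UMIs of all genes in a class of cells. Since the assay counts the 3′ end of each molecule once, levels of different genes were compared without a length correction. Cells were grouped without the CC chemokine and receptor genes and named after fixed markers. Within the mesenchymal-like cells, a cluster was called fibroblast-like or myofibroblast-like after the higher of its marker scores. This took in 3 clusters in which no marker of the class stood out (led by Mfap4, by Cxcl10 and by Bglap), of which the Cxcl10 cluster gave 339 of the 1074 myofibroblast-like cells of Healthy 1. The largest fibroblast-like cluster, led by Bglap2 and Has1, also had the epithelial genes Upk1a, Prom2 and Areg among its 10 leading genes, and 15.1% of its cells were called doublets before these were removed. Results on these classes are therefore given also without these 4 clusters, a choice made after the clusters were seen. Macrophage-like cells numbered 83, 79, 36, 122, 58 and 47 in Healthy 1, Healthy 2, Acute 1, Acute 2, Chronic 1 and Chronic 2, the order used for every series of values here. Urothelial-like cells numbered 4763 to 8626 per library, and lymphocyte-like cells 30, 25, 1, 250, 0 and 3. Sums of fewer than 20 cells were not tested, which removed the MHC class II-like cells of Acute 1 (14 cells), the endothelial-like cells of Healthy 2 (13) and Chronic 2 (18), and the lymphocyte-like cells of Acute 1 and of both chronic libraries. Mural-like cells reached 20 in the acute libraries alone (22 and 113) and were left out of the comparison of broad classes.

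By the mouse annotation (GRCm38, GENCODE vM21), 9 of the 10 genes lie in neighbouring groups on chromosome 11. Ccl2 (positions 82035571 to 82037453), Ccl7, Ccl11 and Ccl8 (82115185 to 82116799) lie within 81.2 kb, all on the + strand. Ccl5 (83525778 to 83530518), Ccl9, Ccl6, Ccl3 and Ccl4 (83662584 to 83664683) lie within 138.9 kb, with Ccl4 alone on the + strand. Ccl20 lies on chromosome 1 from 83116766 to 83119167. RefSeq promoters of the same build (GRCm38.p6) were matched for Ccl3, Ccl6, Ccl8, Ccl9 and Ccl20. The 250 bases before the start of Ccl6, Ccl9 and Ccl8 are shown because Ccl6 and Ccl9 followed each other closely over the classes of cells, while Ccl8 stood apart from both. Capitals mark the longest run that Ccl6 and Ccl9 share, and in Ccl8 the letters TATAAA, searched on both strands.
Ccl6 (chr11:83593088-83593337, - strand): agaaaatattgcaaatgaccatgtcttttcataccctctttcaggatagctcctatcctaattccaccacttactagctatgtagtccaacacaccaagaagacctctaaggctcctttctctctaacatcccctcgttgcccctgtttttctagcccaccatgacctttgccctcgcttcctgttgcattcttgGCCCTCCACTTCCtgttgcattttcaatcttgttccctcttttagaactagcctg
Ccl9 (chr11:83578637-83578886, - strand): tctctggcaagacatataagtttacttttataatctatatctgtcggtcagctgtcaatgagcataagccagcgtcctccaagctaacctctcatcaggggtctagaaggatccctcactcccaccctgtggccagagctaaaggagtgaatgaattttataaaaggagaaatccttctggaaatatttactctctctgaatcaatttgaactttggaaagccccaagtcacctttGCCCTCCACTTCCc
Ccl8 (chr11:82114935-82115184, + strand): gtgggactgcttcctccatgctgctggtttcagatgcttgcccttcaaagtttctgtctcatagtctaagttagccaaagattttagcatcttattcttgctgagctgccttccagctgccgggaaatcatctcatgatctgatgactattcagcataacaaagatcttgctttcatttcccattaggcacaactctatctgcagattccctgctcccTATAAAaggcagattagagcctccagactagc
The run shared by Ccl6 and Ccl9 is 13 bases long and begins at base -55 of Ccl6 and base -14 of Ccl9. It was found in 5 of 32851 promoters of this length (0.015%), Ccl6 and Ccl9 among them, and its part in their levels was not tested. The other pairs among the 5 promoters shared runs of 7 to 10 bases. TATAAA begins at base -32 of Ccl8. The same letters stand in the Ccl9 promoter, left in lower case, at base -92 and also on the other strand, and 12.4% of all promoters hold these letters on either strand.

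Among the classes with at least 20 cells, sub-clusters left aside, macrophage-like cells carried the highest level of Ccl2, Ccl3, Ccl4, Ccl6, Ccl7, Ccl8 and Ccl9 in every library. A cluster led by Clec4e that stayed unnamed held 39 cells, at most 18 in a library, and its levels of Ccl4, Ccl6 and Ccl9 were above those of macrophage-like cells in 1, 2 and 3 libraries. Over the 6 libraries the mean levels in macrophage-like cells were 6878 ± 6689 CPM for Ccl4, 3383 ± 2380 for Ccl7, 3381 ± 2439 for Ccl8, 2608 ± 1488 for Ccl2, 1697 ± 1442 for Ccl3, 1158 ± 626 for Ccl6 and 596 ± 216 for Ccl9 (SD, n = 6). The spread between libraries was as large as most steps of this order, so that neighbours in it did not stand apart. A macrophage-like cell had UMIs of a median of 5 to 6.5 of the listed genes, and 53.3% to 100% of these cells per library had UMIs of 5 or more of them. Urothelial-like cells had a deeper median (5978.5 to 10852 UMIs per cell, against 2906.5 to 4815), yet 69.1% to 90.2% of them had no UMI of any of the 10 genes.

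**Figure D1:**
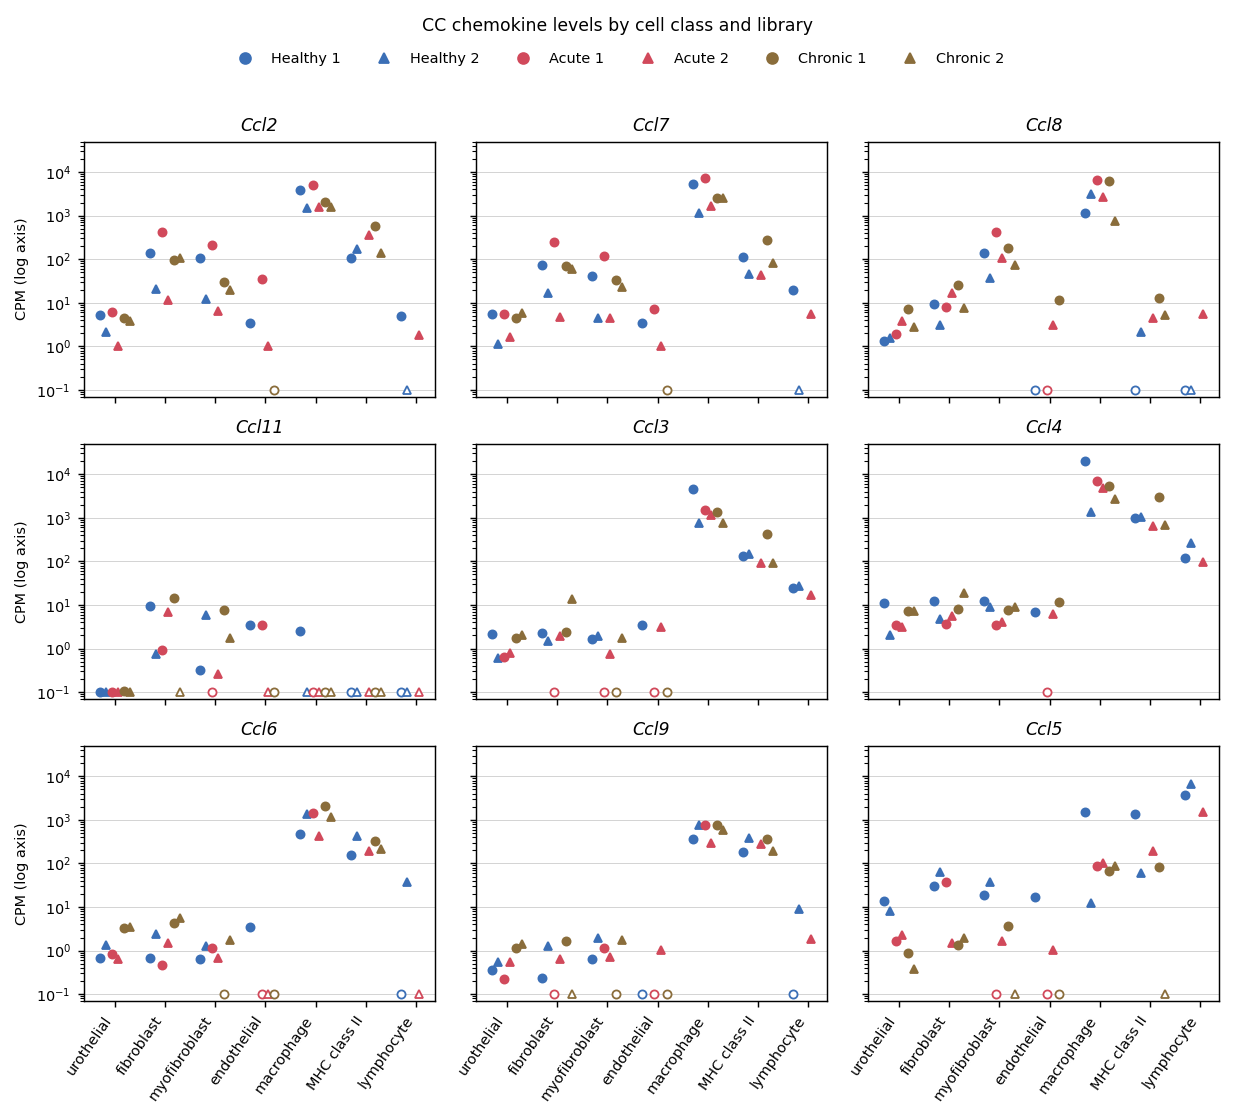
Level of 9 CC chemokines (CPM, log axis) in 7 classes of cells, 1 point per library with at least 20 cells, with levels under 0.1 drawn at 0.1 and open points for a level of 0. For 7 genes the macrophage-like class is the highest in each library. Of these, Ccl9 and Ccl6 have the highest median levels in MHC class II-like cells relative to macrophage-like cells of the same library (49.6% and 31.4%). Ccl5 is highest in lymphocyte-like cells in the 3 libraries that have enough of them.

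Each class was tested against the mean of the other broad classes with edgeR's quasi-likelihood test and Benjamini-Hochberg adjustment over all 7493 genes tested (called edgeR adjusted p from here on), with the library as a block. Of the 10 genes 8 passed the filter on low counts, and Ccl11 and Ccl20 did not. In macrophage-like cells 8 were called higher, where 18.8% of all genes tested were. Their log2 differences ran from 7.17 ± 0.35 (SE) for Ccl2 to 9.11 ± 0.37 for Ccl8, with Ccl5 apart at 2.57 ± 0.60 (edgeR adjusted p = 0.00112, and 0.0858 without Healthy 1). In MHC class II-like cells 7 were called higher (19.6% of all genes), led by Ccl9 at 6.43 ± 0.27 and Ccl6 at 5.45 ± 0.31. In lymphocyte-like cells Ccl5 was called higher (8.35% of all genes) and Ccl2 lower (6.09%), Ccl2 with 1, 0 and 1 UMIs in the 3 libraries that had enough cells. Mesenchymal-like cells had Ccl8 called higher (28.5% of all genes) and 5 genes lower (26.0%), and all 8 were called lower in urothelial-like (26.8%) and endothelial-like cells (12.7%). These lower calls are a description, since each class was set against a mean that holds the high macrophage-like level, and nothing further is read from them. The pairs of gene and class called lower numbered 22, but 14 without Acute 2 and 12 with stricter limits on cells. Of 16 genes of the response to tissue dissociation, 12 were also called higher in macrophage-like cells (median log2 difference 0.78, against -0.06 over all genes tested). Their part in the CC chemokine differences was not tested.

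Ccl2 and Ccl7, the attractants of monocytes, followed the same pattern. Ccl2 stood at 3858, 1464, 5037, 1596, 2089 and 1604 CPM in macrophage-like cells, and Ccl7 at 5267, 1141, 7275, 1662, 2479 and 2477. Healthy 1 and Acute 1 were the highest of the 6 for both genes. Over 36 sums of class and library, each was the gene most like the other among 9692 genes compared (Pearson r = 0.967 on log2 of the level plus 1, a description, since sums of 1 library share their depth and background). In MHC class II-like cells Ccl2 ranged from 108 to 569 and Ccl7 from 43.2 to 281 CPM over 5 libraries. Both genes were higher in macrophage-like cells in the direct comparison with MHC class II-like cells, Ccl7 by 4.58 ± 0.31 and Ccl2 by 2.99 ± 0.38 on the log2 scale (edgeR adjusted p = 5.98e-07 and 8.72e-05). In that comparison 7 of the 8 genes tested were called higher in macrophage-like cells, against 17.4% of 2858 genes. Here too a gene could pass the filter through the class in which it is high, so this count is a description. The dissociation list moved as well, with 10 of its 16 genes called higher and 2 lower (median log2 difference 0.80, against 0.01 over all genes tested), and its part in these differences was not tested.

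Fibroblast-like cells also carried Ccl2 and Ccl7. Their Ccl2 levels were 136, 20.5, 412, 11.4, 94.2 and 107 CPM, and their Ccl7 levels 73.8, 16.7, 251, 4.84, 68.6 and 59.1. Acute 1 was the highest and Acute 2 the lowest for both genes, so that the acute libraries stood at opposite ends. The make-up of the class differed between them as well. Clusters led by Inmt and by Bglap gave 722 and 409 of the 1623 fibroblast-like cells of Acute 2. In Acute 1 these clusters gave 29 and 36 of 414 cells, and the part of the make-up in these levels was not tested. In Chronic 2, 46 of the 56 Ccl2 UMIs of fibroblast-like cells lay in 1 cell. Myofibroblast-like cells, which carry Acta2 and Tagln, had 106, 12.4, 207, 6.59, 30.2 and 19.3 CPM of Ccl2, below the fibroblast-like cells of the same library in 6 of 6 libraries. The difference was -0.96 ± 0.20 for Ccl2 and -0.94 ± 0.17 for Ccl7 on the log2 scale (edgeR adjusted p = 0.00337 and 0.000911), and these 2 of the 5 genes tested were called lower where 8.07% of 10331 genes were. Without the 4 clusters named above it was -0.996 for Ccl2 and -1.24 for Ccl7 (edgeR adjusted p = 0.00255 and 0.000138), over 5 libraries, as 17 fibroblast-like cells were then left in Chronic 2. Other genes, in 2 lists, were set beside these values, 10 cytokine and NF-kappaB response genes and 16 genes of the response to tissue dissociation such as Fos and Hspa1a. In fibroblast-like cells the first list summed to 1986, 537, 2298, 353, 1646 and 617 CPM and the second to 18383, 12902, 18571, 7944, 23460 and 13567. Both sums were lowest in Acute 2, as were Ccl2 and Ccl7, and their part in the Ccl2 and Ccl7 levels was not tested.

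Ccl8 was the CC chemokine with the highest level in myofibroblast-like cells in 5 of 6 libraries. Ccl5 was just above Ccl8 in Healthy 2, where 50 of the 59 Ccl5 UMIs lay in 1 cell. Ccl8 stood at 138, 37.1, 418, 105, 181 and 75.5 CPM in myofibroblast-like cells, against 9.22, 3.15, 7.84, 17.1, 25.6 and 7.62 in fibroblast-like cells. All 6 myofibroblast values lay above all 6 fibroblast values. The difference was 3.59 ± 0.31 on the log2 scale (12.0-fold, edgeR adjusted p = 1.27e-06), and 10.6% of the genes tested were called higher in myofibroblast-like cells. Without the 4 clusters it was 3.72 (edgeR adjusted p = 7.69e-07). The level was not held by a few cells in the larger libraries, since the 5 cells with the most Ccl8 held 6.09% of its 837 UMIs in Healthy 1 and 5.92% of its 1572 UMIs in Acute 2. All 5 myofibroblast sub-clusters carried it, with 50.5 to 183 CPM in Healthy 1 and 67.8 to 133 in Acute 2. Of all Ccl8 UMIs of a library, myofibroblast-like cells held 2.74% to 59.3% and macrophage-like cells 31.3% to 85.6%.

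RNA set free from broken cells is counted in every droplet, so the level outside macrophage-like cells was set beside that of C1qa, C1qb and C1qc, the complement genes of macrophages. The summed C1q level of urothelial-like cells was a median of 0.06% of the macrophage-like level of the same library (range 0.0322% to 0.182%), and that of fibroblast-like and myofibroblast-like cells 0.108% and 0.112%. In urothelial-like cells the 7 genes had medians of 0.0744% (Ccl3) to 0.147% (Ccl6). Set against C1q in the same library, Ccl6 and Ccl7 were above it in 6 of 6 libraries, Ccl2, Ccl3, Ccl8 and Ccl9 in 5 and Ccl4 in 4, by less than 0.2 percentage points in each. In fibroblast-like cells Ccl2 stood at 4.02% (0.713% to 8.18%) and Ccl7 at 1.92% (0.291% to 3.45%), above C1q in 6 of 6 libraries. In fibroblast-like cells Ccl8 itself stood at 0.532% (0.101% to 0.986%). Ccl3, Ccl4, Ccl6 and Ccl9 had medians of 0.169%, 0.128%, 0.195% and 0.114% there, beside 0.108% for C1q, and Ccl3 reached 1.75% in a library. In myofibroblast-like cells Ccl8 stood at 5.23% (1.19% to 12.2%), also above C1q in each library, as were Ccl2 (median 1.32%) and Ccl7 (0.860%). Ccl3, Ccl4, Ccl6 and Ccl9 had medians of 0.0492%, 0.111%, 0.119% and 0.212% there, beside 0.112% for C1q. The C1q genes follow RNA of macrophage-like cells, whereas MHC class II-like cells also held Ccl4, Ccl6 and Ccl9. In those cells the medians were 25.5%, 31.4% and 49.6% of the macrophage-like level, beside 0.310% for C1q. A level above C1q can therefore include free RNA of other classes, and its part was not tested.

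**Figure D2:**
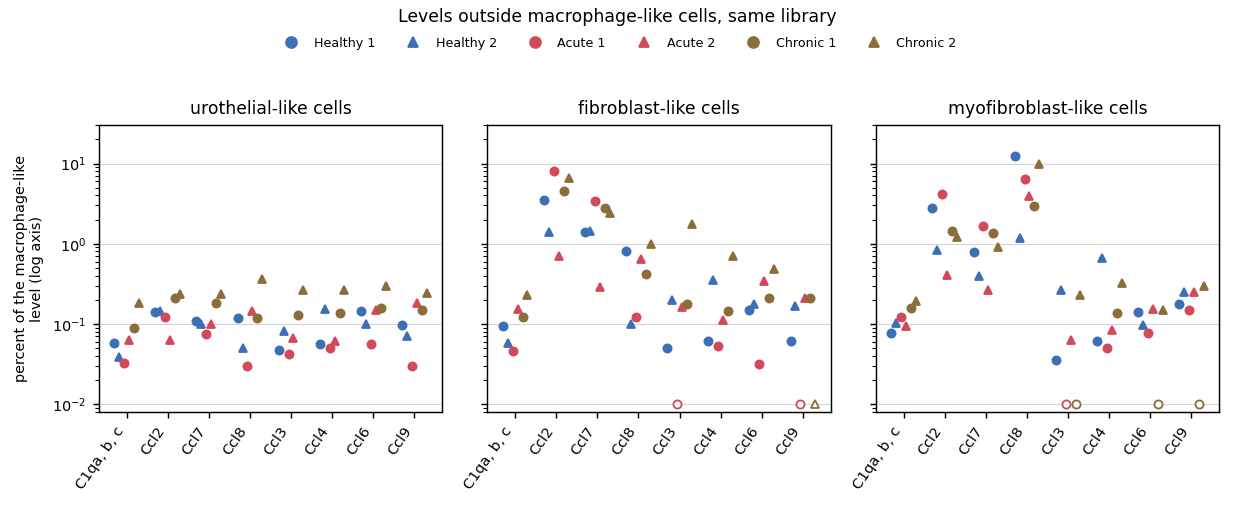
Level in urothelial-like, fibroblast-like and myofibroblast-like cells as a percent of the macrophage-like level of the same library (log axis), for C1qa, C1qb and C1qc summed and for 7 CC chemokines, 1 point per library and open points at 0.01 for 0. Ccl2 and Ccl7 in fibroblast-like cells and Ccl8 in myofibroblast-like cells lie above the C1q values, and the urothelial points lie between 0.0298% and 0.359%.

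Ccl3 and Ccl4, which activated macrophages release, were the most variable of these 7 genes in macrophage-like cells relative to their means. Ccl4 stood at 19926, 1355, 6861, 4935, 5456 and 2733 CPM and Ccl3 at 4566, 744, 1547, 1175, 1387 and 764. The healthy libraries held both the highest and the lowest value of each gene, with the 4 injured libraries between them. Each was the gene most like the other over the 36 sums (r = 0.980), followed for both by Ctss, a lysosomal protease (r = 0.970 with Ccl3 and 0.972 with Ccl4). MHC class II-like cells had 1010, 1040, 635, 3017 and 697 CPM of Ccl4 in the 5 libraries tested, below the macrophage-like cells of the same library in each. The difference was 1.97 ± 0.48 for Ccl4 and 3.04 ± 0.40 for Ccl3 on the log2 scale (edgeR adjusted p = 0.00798 and 0.000123). The cytokine and NF-kappaB list of macrophage-like cells summed to 5106 CPM in Healthy 1 and 1543 in Healthy 2, the highest and the lowest of 6, and the dissociation list to 13147 and 12544.

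Ccl6 and Ccl9, ligands of Ccr1 found in rodents, were carried by both macrophage-like and MHC class II-like cells. Ccl9 stood at 374, 775, 757, 296, 785 and 588 CPM in macrophage-like cells, and at 186, 384, 280, 367 and 193 in the MHC class II-like cells of the 5 libraries other than Acute 1. Ccl6 stood at 469, 1346, 1462, 433, 2068 and 1172 in macrophage-like cells, and at 153, 422, 191, 327 and 213 in MHC class II-like cells. Macrophage-like cells were higher in 5 of 5 libraries for both genes, and the ranges of the classes overlapped for Ccl9 but not for Ccl6. The difference was 0.84 ± 0.19 for Ccl9 and 1.80 ± 0.21 for Ccl6 on the log2 scale (edgeR adjusted p = 0.00505 and 5.69e-05). Within the MHC class II-like cells, those led by Cd209a, a lectin of dendritic cells that arise from monocytes, had 336, 498, 354 and 389 CPM of Ccl9 in the 4 libraries with at least 20 of them (Healthy 1, Healthy 2, Acute 2 and Chronic 1). The value of Acute 2 was above the level of all its macrophage-like cells together. The cells led by Irf8 reached that number in the healthy libraries and had 0 and 1 UMIs of Ccl9 there. Pirb, an inhibitory receptor of myeloid cells, had a pattern as close to Ccl6 as Ccl9 had (r = 0.977 each). Pirb, Ly86 and Cd300a were closer to Ccl9 (r = 0.986, 0.984 and 0.980) than Ccl6 was, which ranked 6 among the genes compared.

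Macrophage-like cells fell into a sub-cluster led by Folr2, a folate receptor of resident macrophages, and one called here by Cx3cr1, the receptor of fractalkine. CC chemokines were among the leading genes of both, Ccl8 after Folr2 in the first, and Ccl4 and Ccl3 ahead of Cx3cr1 in the second. These genes were kept out of the grouping, but genes that vary with them were not, so that the differences below describe the sub-clusters and are not independent of how they were found. They were compared after the clusters had been seen, in the 4 libraries with at least 20 cells of both. Folr2 cells made up 36.1%, 84.8%, 86.1%, 41.0%, 60.3% and 42.6% of macrophage-like cells in the 6 libraries. Ccl8 in Folr2 cells was 2914, 5713, 9945 and 1721 CPM in Healthy 1, Acute 2, Chronic 1 and Chronic 2, against 88.5, 219, 666 and 25.5 in Cx3cr1 cells. No Cx3cr1 value reached the lowest Folr2 value, and the difference was 4.55 ± 0.25 on the log2 scale (23.5-fold, edgeR adjusted p = 3.98e-08). Ccl6 was higher in Folr2 cells by 1.96 ± 0.20 and Ccl9 by 0.57 ± 0.17 (edgeR adjusted p = 1.28e-05 and 0.0418), and the Ccl9 call was lost in 5 of the alternatives tried, with adjusted p of 0.067 to 0.358.

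Ccl4 and Ccl5 went the other way between the macrophage sub-clusters. Ccl4 in Cx3cr1 cells was 24688, 5403, 8987 and 3022 CPM, against 11718, 4336, 3044 and 2367 in Folr2 cells of the same libraries. It was lower in Folr2 cells in 4 of 4 libraries, by 0.93 ± 0.21 on the log2 scale (a difference of -0.93, edgeR adjusted p = 0.00756), and Ccl5 differed by -1.73 ± 0.23 (edgeR adjusted p = 0.000145). Ccl2, Ccl3 and Ccl7 were not called, with differences of 0.51 ± 0.25, -0.66 ± 0.30 and 0.71 ± 0.23. In all 3 genes were called higher and 2 lower in Folr2 cells, where 7.34% and 5.94% of 1431 genes tested were. Of the other lists, Il1b (-3.41 ± 0.26), Tnf (-1.29 ± 0.24) and Nfkbia (-0.85 ± 0.19) were lower in Folr2 cells and Ccl24, an eosinophil attractant, was higher (2.41 ± 0.46). The dissociation list moved too, with Jun, Ier3, Hspa1a and Hspa1b higher in Folr2 cells by 0.81 to 1.18, and its part in these differences was not tested.

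**Figure D3:**
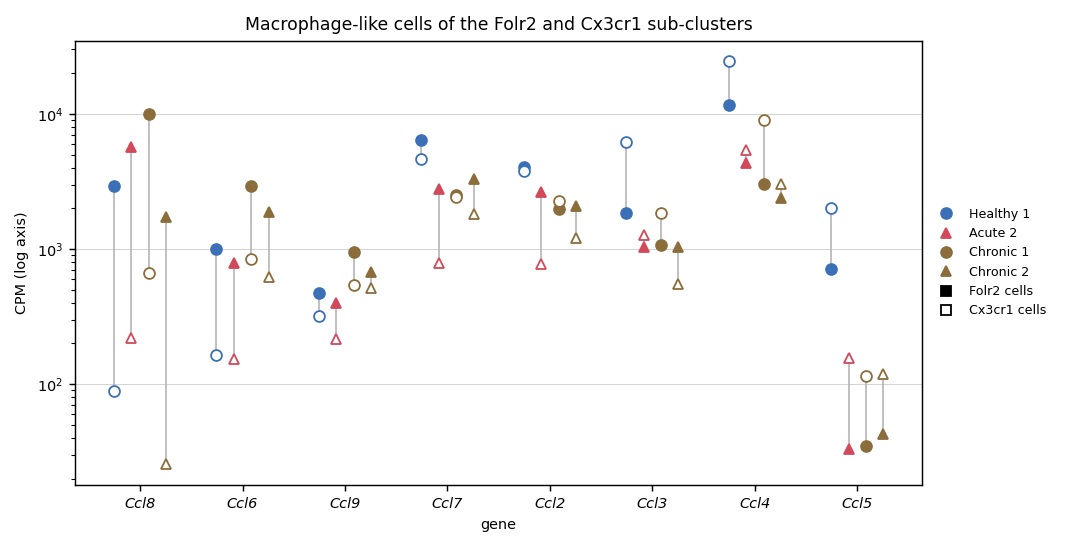
Level of 8 CC chemokines (CPM, log axis) in macrophage-like cells of the Folr2 sub-cluster (filled) and the Cx3cr1 sub-cluster (open), joined for each of the 4 libraries with at least 20 cells of both. Ccl8, Ccl6 and Ccl9 are higher in Folr2 cells and Ccl4 and Ccl5 higher in Cx3cr1 cells in each of the 4.

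Ccl5, which attracts T cells and other leukocytes, had its highest level in lymphocyte-like cells in the 3 libraries with enough of them. Of all its UMIs in a library, lymphocyte-like cells held a mean of 27.5% (0% to 71.6%) over the 5 libraries with any such cells. The far more numerous urothelial-like cells held 38.9% (13.6% to 60.2%) over all 6 libraries. Ccl5 stood at 3751, 6525 and 1544 CPM in the lymphocyte-like cells of Healthy 1, Healthy 2 and Acute 2. The lymphocyte-like level was above the mean of the other classes by 6.61 ± 0.57 on the log2 scale (edgeR adjusted p = 2.01e-10). Few cells carried much of it, as 383 of the 750 Ccl5 UMIs of Healthy 1 lay in 1 cell. In Acute 2, where the lymphocyte-like cells numbered 250 and were led by Icos, a T cell costimulator, in 205, Ccl5 was 1916 CPM in those cells and 391 in the 45 led by Gzma, a granzyme. Macrophage-like cells had 1528 CPM of Ccl5 in Healthy 1 and 12.1 to 102 in the other 5 libraries, and MHC class II-like cells 1352 in Healthy 1 and 0 to 193 in the other 4 tested. Hcst, Ltb and Selplg, genes of leukocytes, were the most like Ccl5 (r = 0.798, 0.777 and 0.754), the weakest likeness of any of the 8 genes compared.

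Between the layers of the urothelium the CC chemokines were low throughout, and Ccl6 differed. Ccl6 was 2.32, 8.17, 1.52, 1.57, 6.37 and 5.48 CPM in superficial-like cells, from 11 to 51 UMIs per library, and 0.509, 0.956, 0.701, 0.462, 2.79 and 3.08 in intermediate-like cells. Superficial-like cells were higher in 6 of 6 libraries, by 1.44 ± 0.24 on the log2 scale (2.72-fold, edgeR adjusted p = 5.72e-05). Ccl6 was the only gene of the 8 called in either direction. Of 11972 genes, 3183 (26.6%) were called higher and 3246 lower in superficial-like cells, a larger share than among the 8. Without Chronic 1, Ccl2 and Ccl7 were called as well (0.64 and 0.70, edgeR adjusted p = 0.0477 and 0.0225). C1qa, C1qb and C1qc differed by 0.04 ± 0.14, -0.15 ± 0.14 and -0.32 ± 0.17 between the same cells (edgeR adjusted p of 0.129 to 0.818), and Ccl9, the gene most like Ccl6, by 0.08 ± 0.28. Even so the superficial level of Ccl6 was 0.104% to 0.607% of the macrophage-like level. Basal-like against intermediate-like cells gave no call among the 8 genes (0 at an unadjusted p under 0.05 as well, and 0 with DESeq2), where 51.1% of 12239 genes were called in either direction. The intermediate-like class took in a cluster of 2609 cells led by Txnip and Krt15 in which basal markers stood out. Of its cells 46.5% scored as basal, and its part in this result was not tested.

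**Figure D4:**
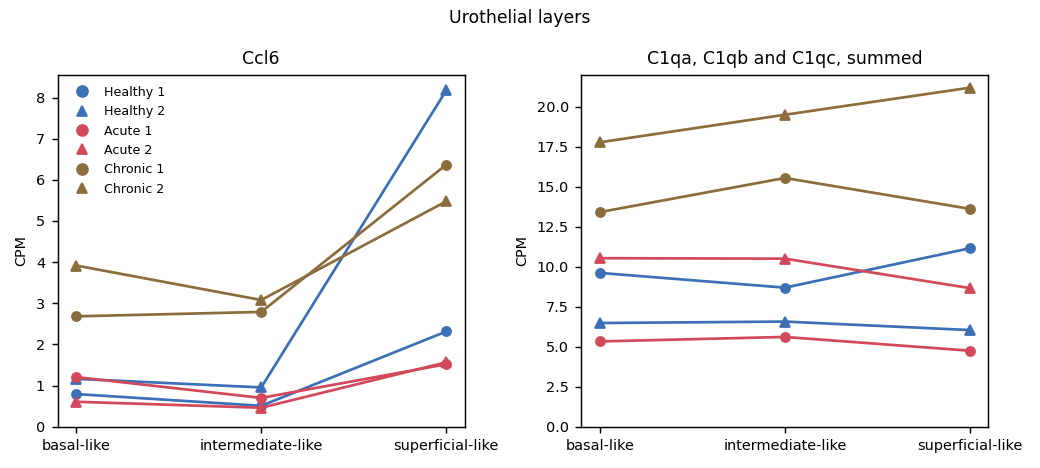
Level (CPM) of Ccl6 and of C1qa, C1qb and C1qc summed in basal-like, intermediate-like and superficial-like urothelial cells, 1 line per library. Ccl6 is higher in superficial-like than in intermediate-like cells in 6 of 6 libraries, and the C1q sum is higher in 2 of 6.

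Ccl11 and Ccl20 were at the edge of detection. Ccl11 had 46, 14, 7, 52, 61 and 4 UMIs in all cells of a library, and fibroblast-like cells held 49.1% of them on average (0% to 87.0%). Mural-like cells had 12.6 and 24.1 CPM in Acute 1 and Acute 2, the libraries with at least 20 of them, from 2 and 8 UMIs. The levels in fibroblast-like cells were 9.22, 0.740, 0.922, 6.95, 14.4 and 0 CPM. Each condition held a library at 6.95 or above and a library under 1, so that the conditions overlapped. Macrophage-like cells had 1 Ccl11 UMI in the 6 libraries together. Ccl20 had 2, 1, 1 and 2 UMIs in Healthy 2, Acute 2, Chronic 1 and Chronic 2, all in urothelial-like cells, and was not listed in the tables of Healthy 1 and Acute 1, which list no gene seen in fewer than 8 and 6 cells.

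Of 10 further CC chemokines on a fixed list, 4 were listed in every table and 2 could be tested over the classes. Ccl12, a mouse gene close to Ccl2, stood at 782, 387, 1543, 931, 1408 and 323 CPM in macrophage-like cells and had at most 1 UMI per library in MHC class II-like cells. Ccl24 stood at 68.8, 257, 195, 125, 135 and 71.2. Both were called higher in macrophage-like cells, by 11.58 ± 0.26 and 10.92 ± 0.47 on the log2 scale, fitted sizes that rest on classes at or near 0.

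Of 14 receptors and scavengers of CC chemokines, 7 were listed in every table and 6 were tested over the classes. Ccr2, the main receptor of Ccl2, stood at 42.1, 197, 93.3, 275 and 109 CPM in the MHC class II-like cells of the 5 libraries tested, and at 22.9, 21.2, 47.6, 39.6, 109 and 80.7 in macrophage-like cells. It differed by -1.52 ± 0.32 between macrophage-like and MHC class II-like cells (edgeR adjusted p = 0.00324), in the direction opposite to Ccl2 and Ccl7. Against the mean of the other classes, Ccr2 was called higher in lymphocyte-like cells as well, by 6.26 ± 0.49 (mean 123 CPM). In MHC class II-like cells that difference was 6.33 ± 0.38. Ccr1, a receptor of Ccl3, Ccl6 and Ccl9, was called higher in both macrophage-like and MHC class II-like cells (7.74 ± 0.54 and 7.76 ± 0.57). Ackr1, which binds chemokines on venules without signalling, stood at 161, 124, 255 and 178 CPM in the endothelial-like cells of the 4 libraries tested and was called higher there by 6.01 ± 0.33. Endothelial-like cells had 0 to 10 UMIs of any of the 10 CC chemokines per library.

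The study set healthy against acutely and chronically injured mucosa. With edgeR no CC chemokine was called in any of 11 comparisons of injured with healthy libraries (acute and chronic in macrophage-like, fibroblast-like, myofibroblast-like, urothelial-like and all cells, and acute in lymphocyte-like cells), where 0.0311% of all genes were called in macrophage-like cells after either injury, 0.00883% in fibroblast-like cells after either, 0.0349% and 0.0% in myofibroblast-like cells, 0.0144% and 0.0% in urothelial-like cells, 0.0% over all cells after either, and 1.01% in lymphocyte-like cells, where Acute 2 was the 1 acute library. From 0 to 4 of the genes were at an unadjusted p under 0.05 in a comparison. The 4 were of 8 tested in urothelial-like cells after chronic injury, where 995 of all 13870 genes were. DESeq2 called 1 gene, Ccl5, in urothelial-like cells after either injury and over all cells after chronic injury. In these fits it also called far more of all genes than edgeR did, as counted further below. For groups of 2 libraries, the smallest two-sided p of an exact permutation test on 1 value is 0.333. In macrophage-like cells Ccl8 was 1126 and 3132 CPM in the healthy, 6447 and 2629 in the acute and 6178 and 773 in the chronic libraries, which overlapped in each pairing. The log2 differences of the 8 genes from healthy ran from -3.14 ± 1.42 (Ccl5) to 1.02 ± 0.84 (Ccl8) after acute and from -3.57 ± 1.48 (Ccl5) to 0.64 ± 0.62 (Ccl6) after chronic injury. Folr2 cells had 11718 CPM of Ccl4 in Healthy 1 and 1020 in Healthy 2. Cx3cr1 cells numbered 12 in Healthy 2, too few to compare, and the part of the sub-clusters in the Ccl4 levels was not tested.

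With all libraries in the fit, Ccl5 had a negative log2 difference in each of the 11 comparisons. Lymphocyte-like cells had 1 acute library and are left aside for p-values. In all other comparisons but acute macrophage-like and acute fibroblast-like cells, Ccl5 was at an unadjusted p under 0.05. The comparisons share the same 2 healthy libraries, and the sums over all cells contain the other classes, so they do not count as separate evidence. In macrophage-like cells the sign rested on Healthy 1 (1528 CPM), since Healthy 2 was the lowest of the 6 libraries at 12.1 CPM, from 4 UMIs. Over all cells it stood at 38.7, 23.3, 3.35, 12.5, 1.35 and 0.738 CPM, so that all 4 injured libraries lay below both healthy ones. In these sums, fewer cells of a type and less RNA per cell cannot be told apart. The difference was -2.11 ± 0.64 after acute and -5.04 ± 0.74 after chronic injury (edgeR unadjusted p = 0.0157 and 0.00042, adjusted p = 0.973 and 0.756), while DESeq2 gave an adjusted p of 2.75e-11 for chronic injury. Urothelial-like cells had 13.8, 8.22, 1.68, 2.24, 0.874 and 0.382 CPM (edgeR adjusted p = 0.148 and 0.153, DESeq2 adjusted p = 1.78e-06 and 3.11e-16). Few cells carried much of this, as 5 cells held 291 of 957 UMIs in Healthy 1, 251 of 524 in Healthy 2, 62 of 111 in Acute 1 and 83 of 160 in Acute 2. In fibroblast-like cells of Acute 1, 78 of the 80 Ccl5 UMIs lay in 1 cell. In lymphocyte-like cells themselves Ccl5 was 3751 and 6525 in the healthy libraries and 1544 in Acute 2, a difference of -1.77 that rests on 1 acute library. The make-up of these cells differed too, with Gzma cells 21 of 30 and 14 of 25 in the healthy libraries and 45 of 250 in Acute 2, and its part in the difference was not tested.

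Lymphocyte-like cells made up 0.388%, 0.281%, 0.015%, 2.22%, 0.0% and 0.059% of all cells, and Hcst, Nkg7 and Gzma together stood at 9.81, 9.63, 1.99, 10.3, 1.69 and 2.82 CPM over all cells. Acute 1 and both chronic libraries were low in both measures and in Ccl5, while Acute 2 had the highest marker level and a Ccl5 level below both healthy libraries. In urothelial-like cells the median Ccl5 level was 0.145% of the lymphocyte-like level and that of the marker sum 0.137% (3 libraries). In macrophage-like cells the differences of Ccl5 turned to 2.93 after acute and 2.50 after chronic injury without Healthy 1 (edgeR adjusted p = 0.281 and 0.33), and were -4.11 and -4.53 without Healthy 2 (edgeR adjusted p = 0.00523 and 0.00284). The part of the lymphocyte number in the Ccl5 differences was not tested.

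**Figure D5:**
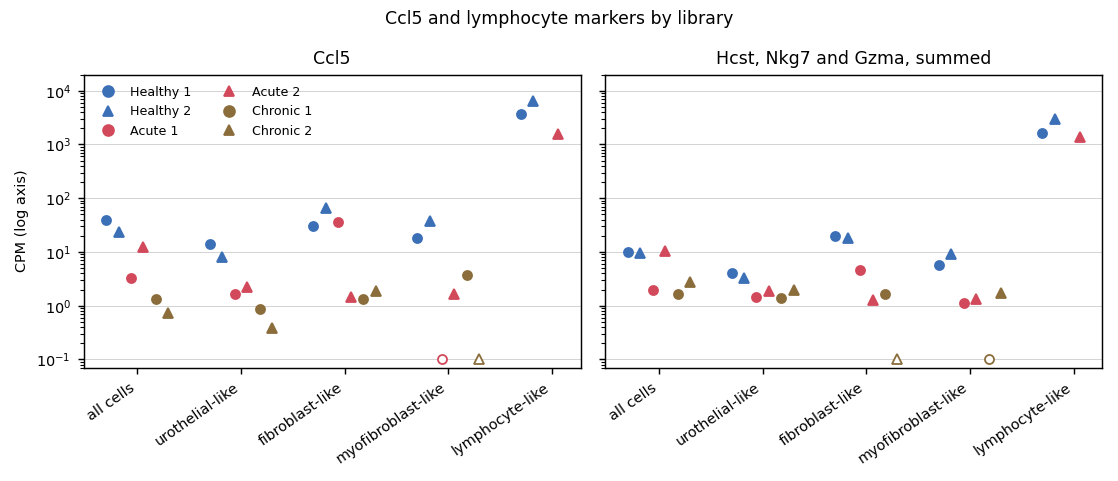
Level (CPM, log axis) of Ccl5 and of the lymphocyte markers Hcst, Nkg7 and Gzma summed, over all cells and in 4 classes with at least 20 cells, 1 point per library and open points at 0.1 for 0. Over all cells both healthy libraries lie above the 4 injured ones for Ccl5, while for the markers Acute 2 lies with the healthy libraries.

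Further differences were at an unadjusted p under 0.05, and none was called. After chronic injury, with Ccl5 included, 4 of 8 genes were so in urothelial-like cells, where 995 of all 13870 genes were. In fibroblast-like cells 2 of 7 were, against 676 of 11329. After acute injury 2 of 5 were in myofibroblast-like cells, against 252 of 8606. In urothelial-like cells after chronic injury Ccl6 differed by 1.54 ± 0.40, Ccl8 by 1.55 ± 0.52 and Ccl9 by 1.31 ± 0.56 from healthy (edgeR unadjusted p = 0.00598, 0.0202 and 0.0495, adjusted p of 0.6 to 0.694). The C1q sum of intermediate-like cells was also highest in the chronic libraries, at 15.5 and 19.5 CPM against 5.61 to 10.5 in the other 4. Fibroblast-like cells after chronic injury had Ccl8 at 25.6 and 7.62 against 9.22 and 3.15 in healthy libraries (1.50 ± 0.64), and the values overlapped. Myofibroblast-like cells after acute injury had Ccl4 at 3.42 and 4.13 against 12.2 and 9.12 (-1.48 ± 0.46, edgeR adjusted p = 1). The response of the genes was also compared between classes, fibroblast-like against macrophage-like and myofibroblast-like against fibroblast-like cells, and no gene of the 10 was called, where 0.0154% (acute) and 0.0617% (chronic) of all genes were called for the former and 0.0% for the latter. The smallest unadjusted p was that of Ccl2 between myofibroblast-like and fibroblast-like cells after chronic injury (-1.70 ± 0.41, edgeR unadjusted p = 0.00104, adjusted p = 1). Most Ccl2 UMIs of the fibroblast-like cells of Chronic 2 lay in a single cell, as given above, and its part in this difference was not tested.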

How the data were processed

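Single cells of digested mouse bladder mucosa were sequenced with a 10x 3′ assay. The authors deposited 1 table of UMI counts per library, made with Cell Ranger on mm10 per the labels, with no normalization. Here, a cell had to have more than 500 genes and less than 10% of its UMIs from mitochondrial genes. Scrublet scores set the doublets removed (0.8% per 1000 cells). Libraries were normalized (sctransform 0.4.2) and integrated (Seurat 5.3.0, 50 components, 3000 features, 21 chemokine and receptor genes kept out), and cells were clustered (leidenalg 0.10.2, resolution 0.8). A mesenchymal-like cluster with 42.3% called doublets was left out, as were a smaller one within the mesenchymal-like cells (72.7%) and 3 among the immune cells led by epithelial or mesenchymal genes (53.4% to 83.3%). Counts were summed per class and library (at least 20 cells) and tested with edgeR 4.0.16 (TMM, filterByExpr, quasi-likelihood), with p-values adjusted by Benjamini-Hochberg over all genes at 0.05. DESeq2 1.42.0 was an alternative. The scripts were tested on simulated data. The members, the lists and the rule for named genes (the 10 genes, and from further lists those that passed a test) were chosen with earlier results of these data known. Likeness was Pearson's r of log2(level + 1).

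Counting error sets the precision of low values, and nothing in the labels ties libraries with the same replicate number to each other. Per the study the samples were processed and sequenced in batches. No batch entered the comparisons of conditions, so that differences between batches and between conditions cannot be told apart there.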

Additional observations from a re-analysis of the deposited data

Results flagged for a closer look

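Ccl17, a ligand of Ccr4 made by dendritic cells, is not listed in the table of Acute 1 and therefore stood outside the tests. In MHC class II-like cells of Acute 2 it reached 917.42 CPM (UMIs per 1000000 UMIs) (403 UMIs, exact Poisson interval 830 to 1012 for counting error only), above the limit that a count of 0 allows. The level was 270 in Healthy 1, 543 in Healthy 2, 19.6 in Chronic 1 and 10.4 in Chronic 2. The difference between conditions was not tested.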

How the results depend on the processing

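Of 848 comparisons of 75 values of the CC chemokines with their alternatives, 788 kept their direction and their side of the threshold, 37 lost the call (31 of them on the low side of the broad classes), 21 gained one and 2 changed sign. The changes of sign were Ccl4 in lymphocyte-like cells with stricter limits on cells (-0.17) and Ccl5 in macrophage-like cells after chronic injury without Healthy 1 (2.50). The 75 values were those at an unadjusted p under 0.05 in the main fit. The acute difference of Ccl5 in macrophage-like cells (edgeR unadjusted p = 0.0563) was not among them, and it too changed sign without Healthy 1 (2.93). The 22 pairs of gene and class called lower fell to 12 with stricter limits on cells and were 14 to 22 when 1 library was left out (14 without Acute 2), while the 17 called higher were shared by each alternative except the fit without Healthy 1, which shared 16 of them (Ccl5 in macrophage-like cells was lost and Ccl4 in lymphocyte-like cells gained). Myofibroblast-like against fibroblast-like cells gave 5 calls rather than 3 without the filter on low counts, and 3 to 4 with 1 library left out. Superficial-like against intermediate-like cells gave 3 calls rather than 1 with doublets kept, 2 with stricter limits on cells, and 1 to 3 with 1 library left out (3 without Chronic 1). Folr2 against Cx3cr1 cells, added after seeing the data, gave 4 to 6. Against healthy libraries, where no gene was called, leaving out the filter gave 1 call in acute and 3 in chronic macrophage-like cells, and 1 in acute and 1 in chronic myofibroblast-like cells. DESeq2 gave 1 in urothelial-like cells after each injury and 1 over all cells after chronic injury, and clusters without integration gave 1 in acute lymphocyte-like cells. Leaving out 1 library gave 0 to 1 in macrophage-like cells after each injury (1 without Healthy 2, where the chronic difference of Ccl5 was -4.53). The cause of these changes was not tested.

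DESeq2 called 271 and 116 genes of all tested in urothelial-like cells after acute and chronic injury, where edgeR called 2 and 0, and 142 and 60 over all cells, where edgeR called 0. Without the filter, macrophage-like cells had 22 and 38 calls rather than 1 each, myofibroblast-like cells 57 and 34 rather than 3 and 0, and macrophage-like against MHC class II-like cells 1395 rather than 901. Acute lymphocyte-like cells had 56 rather than 25 without integration. With the 4 mesenchymal clusters left out, a choice made after seeing the data, the CC chemokine counts stood as before, and over all genes fibroblast-like cells had 2 calls rather than 1 after each injury and myofibroblast-like cells 0 rather than 3 after acute injury. The replicate numbers name separate libraries, and the deviations of same-numbered libraries over all cells correlated at -0.164, -0.122 and -0.237. Within macrophage-like, fibroblast-like, myofibroblast-like and urothelial-like cells these correlations ran from -0.328 to 0.385, so that no number went with its own in every pair. With the replicate number as a block, 0 CC chemokines were called against healthy libraries, and 0 of 13 values changed side. Acute lymphocyte-like cells could not be fitted without Healthy 1 or Healthy 2 or with stricter limits on cells, nor chronic lymphocyte-like cells at all. Classes of 36 to 122 macrophage-like cells and 2 libraries per condition limit what these comparisons can show.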

Other observations

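Ccl22, the other ligand of Ccr4, is likewise not listed in the table of Acute 1. In MHC class II-like cells it stood at 237 CPM (UMIs per 1000000 UMIs) in Healthy 1, 80.6 in Healthy 2, 280 in Acute 2, 65.4 in Chronic 1 and 36.4 in Chronic 2. Both chronic libraries lay below the other 3, from 10 and 7 UMIs, and the difference was not tested.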
